A study of Mus musculus with 8 samples.

Results

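The histone cluster genes are the replication-dependent histone genes, taken here as every gene symbol of the expression table that begins with Hist1h, Hist2h, Hist3h or Hist4h. This rule found 70 of the 38453 genes to which a transcript was assigned. Of these, 56 belong to cluster 1 on chromosome 13, 10 to cluster 2 on chromosome 3, 3 to cluster 3 on chromosome 11, and *Hist4h4* stands alone on chromosome 6. By protein family the 70 genes comprise 6 H1, 20 H2A, 19 H2B, 12 H3 and 13 H4 genes, and 3 of them (*Hist1h2al*, *Hist1h2aj* and *Hist3h2bb-ps*) are annotated as pseudogenes.

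The libraries were made from inguinal white adipose tissue (ING WAT), the subcutaneous fat depot of the groin, of C57BL/6j mice. At postnatal day 21 (PN21), the age of weaning, 4 mice were sequenced (m1, m49, m138 and m145), and at postnatal day 98 (PN98), in young adulthood, 4 others (m35, m106, m114 and m125). No gene had been altered in either group. In the study the older mice received a control or a western style diet, and which of them the sequenced PN98 mice ate is not given in the sources used here. By the methods, mice kept beyond weaning were male, and the sex of the sequenced PN21 mice is not stated. The Y-linked *Ddx3y* lay between 18.1 and 25.9 FPKM in the 8 mice, and *Xist* reached at most 0.832 FPKM. Each library holds the polyadenylated RNA of a whole depot with all of its cell types, so that fewer cells of a type and less RNA per cell cannot be told apart.

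Nucleosomes wrap DNA around a core of H2A, H2B, H3 and H4, and the linker histone H1 binds where the DNA enters and leaves that core. Cluster genes are transcribed mainly in S phase, when new chromatin has to be packed, and their mRNAs are the only animal mRNAs that mostly lack a poly(A) tail. They end instead a few bases behind a short stem-loop, which is bound by SLBP and cut with the help of the U7 snRNP. Some cluster genes also give polyadenylated transcripts that read past the stem-loop, and this form is known from differentiated cells. The present libraries were selected on poly(A) tails, so the values below count only cluster transcripts that were captured with such a tail or in spite of having none.

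The end of the transcript decides what such a library can hold, and stem-loops are therefore shown first, those of the genes of highest level and, for further forms, those of *Hist1h4b* and *Hist1h2bb*. They were read from the GENCODE vM21 transcripts (build GRCm38, the build of the files) in the direction of transcription. Capitals mark the stem-loop of 16 bases and small letters the 5 bases on either side, where the annotated transcript extends that far. *Hist1h1c* encodes a linker histone, *Hist1h4h* and *Hist1h4b* encode H4, *Hist1h2bb* encodes H2B and the others H2A.
Hist1h1c: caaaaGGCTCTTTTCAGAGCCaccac
Hist2h2aa1: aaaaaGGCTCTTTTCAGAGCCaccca
Hist1h4h: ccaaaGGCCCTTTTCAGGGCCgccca
Hist1h2ao: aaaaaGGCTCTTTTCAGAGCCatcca
Hist2h2ac: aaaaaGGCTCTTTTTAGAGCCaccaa
Hist1h2ap: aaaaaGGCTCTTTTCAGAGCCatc
Hist1h4b: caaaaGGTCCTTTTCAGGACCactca
Hist1h2bb: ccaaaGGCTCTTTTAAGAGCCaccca
The stem-loop of *Hist1h1c* lies at chr13:23739512-23739527 on the plus strand, that of *Hist2h2aa1* at chr3:96246032-96246047 on the plus strand and that of *Hist1h2ao* at chr13:21810898-21810913 on the plus strand. That of *Hist1h2bb* lies at chr13:23747203-23747218 on the plus strand. The 8 genes show 5 of the 6 forms counted below.

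The stem-loop was searched as GG, any 3 bases, TTT, any 2 bases, A, any 3 bases and CC on the transcribed strand, with all 6 stem positions paired and G with T allowed. It was found in the annotated transcripts of 44 of the 70 genes and of 115 other genes. Counted by transcript, those of the cluster genes included, 0.159% of all 141767 annotated transcripts held it. The form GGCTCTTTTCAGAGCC stood in 26 of the 44 genes, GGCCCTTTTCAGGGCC in 7, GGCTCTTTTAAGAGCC in 6, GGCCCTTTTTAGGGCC and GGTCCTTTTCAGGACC in 2 each and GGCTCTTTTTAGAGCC in 1. Of the 26 genes without a match, at least 13 have an annotated transcript that stops at the stop codon, with no bases behind the coding part. *Hist1h2bq* and *Hist1h2br* have such a transcript beside longer ones, in which no match was found either. The gene of highest level, *Hist1h2bc*, had no match in its annotated transcript of 1156 bases, which is spliced from 2 exons. No match was found in the processed pseudogene *Hist1h2al* or in *Hist1h4k* either.

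Among the 43 genes with a mean of at least 1 FPKM over the 8 mice, 29 had a stem-loop. In 8 of these 29 the model listed in the files ran more than 100 bases past the stem-loop. The model of *Hist1h1c* ran 839 bases past it, that of *Hist3h2a*, an H2A gene of cluster 3, ran 1487 bases past it, and that of *Hist2h3c2*, an H3 gene, 375 bases. In 16 genes it ended within 100 bases, among them *Hist2h2aa1* at 68 bases, *Hist2h2ac* at 57 bases, *Hist1h4h* at 46 bases and *Hist1h2ao* at 31 bases. In the other 5 the listed interval of the transcript of highest value stopped before the last base of the stem-loop. The promoters of cluster genes, taken as 250 bases before to 50 bases after the start in RefSeq (GRCm38.p6), were matched for 62 of the 70 genes. CCAAT, the box bound by NF-Y, stood on either strand in 53 of the 62 promoters against 37.4% of all promoters, and TATAAA in 35 of the 62 against 13.6%. All promoters without CCAAT were those of H4 genes. Promoters of neighbouring genes can overlap, as for *Hist1h2ag* and *Hist1h2bj*, so that the same box counts for both.

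FPKM, fragments per length of transcript and per number of mapped fragments, is a level per length and was summed over the transcripts of each gene. Cluster genes together held 330 to 562 FPKM at PN21 and 353 to 908 FPKM at PN98, with means of 452 ± 97.3 (SD, n = 4) and 562 ± 250 (SD, n = 4). The groups overlapped, and the highest sum, 908 FPKM, was that of PN98 mouse m114. A few genes carried most of the sum: the 5 genes of highest level held 54.3% of it at PN21 and 68.1% at PN98. Of the 70 genes, 9 had a mean of 10 FPKM or more, 34 lay between 1 and 10 FPKM, and 27 lay below 1 FPKM.

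Before the comparison, 2 features of the libraries bear on it. PN98 mouse m35 held 1739 FPKM of 14 lymphocyte marker genes against 59.7 to 330 FPKM in the other PN98 mice and 781 to 1874 FPKM at PN21, and without it the number of genes called over the whole table went from 856 to 3644. Adipocyte markers were present in every mouse, with sums of 12284 to 22532 FPKM at PN21 and 33221 to 43423 FPKM at PN98. Skeletal muscle markers summed to 40 to 855 FPKM at PN21 and 631 to 4524 FPKM at PN98. Mitochondrially encoded transcripts took 41.8% to 59.2% of all FPKM in a library, and *mt-Ts1* was listed at 0 in m106 and m125, which is why 2 further scalings of the libraries were computed.

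*Hist1h2bc*, an H2B gene, was the cluster gene of highest level. Its FPKM values at PN21 were 77.8 in m1, 98.6 in m49, 47.3 in m138 and 91.4 in m145, and at PN98 they were 97.0 in m35, 73.7 in m106, 177 in m114 and 67.7 in m125. The groups overlapped, and m114 stood above all others. *Hist1h1c*, a linker histone gene, had 75.0, 83.2, 42.0 and 60.2 FPKM in m1, m49, m138 and m145, and 43.7, 53.8, 69.6 and 34.6 FPKM in m35, m106, m114 and m125. Its mean was 65.1 ± 18.1 at PN21 and 50.4 ± 15 at PN98 (SD, n = 4 each), again with overlap.

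The next genes are H2A genes of cluster 2 and *Hist1h2al*, an H2A pseudogene that lies away from cluster 1 at chr13:51202727-51203065. *Hist2h2aa1* had 38.8, 27.2, 19.4 and 49.4 FPKM in m1, m49, m138 and m145, and 88.4, 48.8, 127 and 47.4 FPKM in m35, m106, m114 and m125. *Hist2h2aa2* had 38.4, 28.2, 19.4 and 47.2 FPKM, and at PN98 81.6, 47.0, 123 and 43.2 FPKM in the same order of mice. *Hist1h2al* had 39.8, 30.4, 20.3 and 48.0 FPKM, and at PN98 85.4, 54.7, 123 and 44.7 FPKM. The values of the 3 genes were close to each other in every mouse, and in each gene PN98 mouse m125 lay below PN21 mouse m145. In *Hist2h2aa1* and *Hist2h2aa2* PN98 mouse m106 also lay just below m145.

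*Hist2h2ac*, also an H2A gene of cluster 2, had 10.1, 5.46, 4.36 and 11.6 FPKM in m1, m49, m138 and m145, and 18.3, 12.3, 25.6 and 11.2 FPKM in m35, m106, m114 and m125. Here only m125 lay below a PN21 mouse. Among H4 genes, *Hist1h4h* had 25.3, 16.9, 9.98 and 23.0 FPKM at PN21 and 20.4, 15.6, 30.2 and 12.4 FPKM at PN98, and *Hist1h4k* had 10.8, 8.63, 6.61 and 9.30 FPKM at PN21 and 9.38, 8.34, 16 and 7.18 FPKM at PN98. In both H4 genes the ages overlapped.

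The H2A genes *Hist1h2ao* and *Hist1h2ap* of cluster 1 had the opposite order of means. *Hist1h2ao* had 14.7, 5.72, 29.6 and 44.2 FPKM in m1, m49, m138 and m145, and 6.36, 2.26, 3.71 and 2.3 FPKM in m35, m106, m114 and m125. *Hist1h2ap* had 12.9, 5.01, 25.3 and 37.9 FPKM at PN21 and 5.48, 1.99, 3.27 and 1.92 FPKM at PN98. For both, the overlap rested on PN21 mouse m49, which lay just below PN98 mouse m35.

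**Figure D1:**
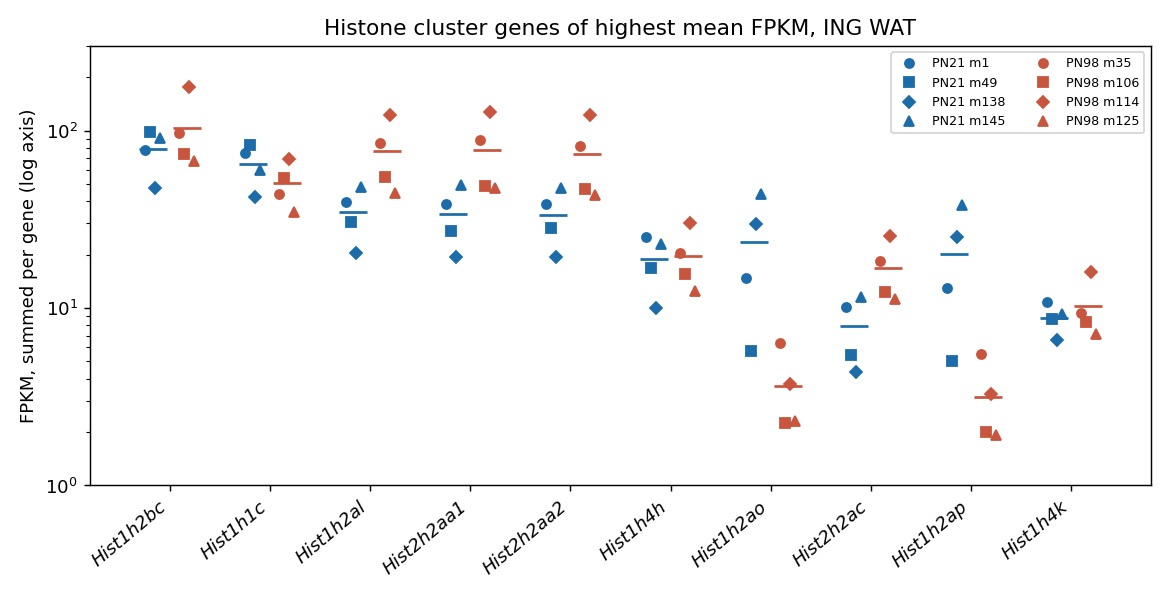
FPKM summed per gene (log axis) of the 10 histone cluster genes of highest mean level, with 1 symbol per mouse, PN21 in blue, PN98 in red and the group mean as a line. *Hist1h2al*, *Hist2h2aa1* and *Hist2h2aa2* show nearly the same pattern, with PN98 mouse m114 highest at 123 to 127 FPKM, while *Hist1h2ao* and *Hist1h2ap* are highest in PN21 mice m145 and m138.

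The remaining 33 genes of at least 1 FPKM were lower. Mean levels of the H2B genes over the 8 mice were 9.17 FPKM for *Hist1h2bh*, 7.23 for *Hist1h2ba*, 5.81 for *Hist1h2bj*, 5.80 for *Hist1h2bg*, 5.29 for *Hist1h2be*, 3.49 for *Hist2h2be*, 2.42 for *Hist1h2bp*, 1.91 for *Hist1h2bl*, 1.90 for *Hist1h2bm*, 1.89 for *Hist3h2ba*, 1.51 for *Hist1h2bb*, 1.44 for *Hist1h2br* and 1 for *Hist1h2bn*. *Hist1h2ba* is known as a testis H2B gene, and 27.4% of its 100-base stretches also occur in *Hist1h2bj*. H4 genes had means of 5.55 FPKM for *Hist1h4i*, 5.27 for *Hist1h4c*, 4.67 for *Hist1h4a*, 3.86 for *Hist1h4f*, 3.71 for *Hist1h4b*, 3.05 for *Hist1h4m*, 2.74 for *Hist1h4n*, 2.42 for *Hist1h4j* and 1.70 for *Hist1h4d*. Beside *Hist1h4h*, no H4 gene reached a mean of 10 FPKM.

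Linker histone genes had means of 8.79 FPKM for *Hist1h1e* and 1.01 FPKM for *Hist1h1d*, which left *Hist1h1c* as the main H1 transcript of the clusters. The further H2A genes had means of 5.85 FPKM for *Hist1h2ag*, 5.65 for *Hist3h2a*, 1.34 for *Hist1h2aj*, 1.24 for *Hist1h2af*, 1.22 for *Hist1h2an*, 1.08 for *Hist1h2ah* and 1.06 for *Hist1h2ad*. Of the 12 H3 genes, *Hist2h3c2* at 3.89 FPKM and *Hist2h3b* at 3.19 FPKM passed 1 FPKM. H3 had the lowest sum of the 5 families, with 10.4 ± 2.67 FPKM at PN21 and 11.4 ± 11.1 at PN98 (SD, n = 4 each).

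Of the 27 genes below a mean of 1 FPKM, 24 were above 0 in at least 4 mice and had means of up to 0.899 FPKM. They were *Hist1h2bq*, *Hist1h2bf*, *Hist1h2bk*, *Hist1h3e*, *Hist1h2ac*, *Hist1h2ab*, *Hist1h2ae*, *Hist1h3d*, *Hist3h2bb-ps*, *Hist1h2ai*, *Hist1h3i*, *Hist1h3h*, *Hist1h3c*, *Hist1h3a*, *Hist1h3b*, *Hist1h3f*, *Hist2h4*, *Hist1h3g*, *Hist2h2ab*, *Hist1h1b*, *Hist1h2ak*, *Hist1h1a*, *Hist4h4* and *Hist2h3c1*. The other 3, *Hist1h2aa*, *Hist2h2bb* and *Hist1h1t*, were above 0 in fewer than 4 mice. The mean was lower at PN98 in 20 of the 27. All 9 H3 genes of cluster 1 were in this group, with summed values of 3.48 to 6.56 FPKM at PN21 and 1.51 to 5.17 FPKM at PN98, and the mean of 8 of the 9 was lower at PN98. These low genes entered no test.

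Differences between the ages were tested with limma on log2(FPKM + 1) over the 16160 genes with a mean of at least 1 FPKM, as PN98 minus PN21, and p-values were adjusted by the Benjamini-Hochberg method over all of them. Of the 43 cluster genes tested, 0 had an adjusted p under 0.05, against 5.3% of all genes tested. At an unadjusted p under 0.05, 8 cluster genes were lower and 5 higher at PN98, together 13 of 43, against 27.4% of all genes (19.2% lower and 8.19% higher). On single transcripts, compared as log2(FPKM) without a pseudocount under the filter of the study, limma called 0 of 36 cluster transcripts at an adjusted p under 0.05, against 1.36% of all, and 9 of 36 at an unadjusted p under 0.05, against 21.8% of all. The values of the 4 PN21 and the 4 PN98 mice did not overlap for 2 of the 43 genes, against 16.1% of all genes tested (10% lower and 6.07% higher in every PN98 mouse). These were *Hist1h2ad*, lower in every PN98 mouse, and *Hist1h2bb*, higher in every PN98 mouse. For any gene without overlap, the two-sided exact permutation test of FPKM gives p = 0.0286, the smallest that 4 against 4 mice allow. This p restates the lack of overlap and adds no further evidence. For *Hist1h2bb* the groups barely parted, with m106 at 1.173 FPKM and m1 at 1.17 FPKM.

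The differences of the 43 genes ran from -2.15 to 1.14 on the log2(FPKM + 1) scale, with standard errors of 0.19 to 0.58. Their median was 0.10, beside -0.21 over all genes tested, and 17 were lower and 26 higher at PN98. When the libraries were scaled by the median of ratios, the median of all genes moved to -0.03 and that of the cluster genes to 0.27, and with equal summed FPKM over nuclear genes the medians were 0.02 and 0.31. PN98 mouse m114 was the highest of the 8 mice in 27 of the 43 genes, and without it 31 of the 43 were lower at PN98 with a median of -0.12. Without m114 the median of all genes tested was -0.22, and with all 8 mice 10835 of the 16160 genes tested were lower. Of the cluster genes tested, 11 of 40 were lower under the median of ratios and 11 of 42 with equal nuclear sums. Without a filter on low values, 37 of all 70 genes were lower.

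**Figure D2:**
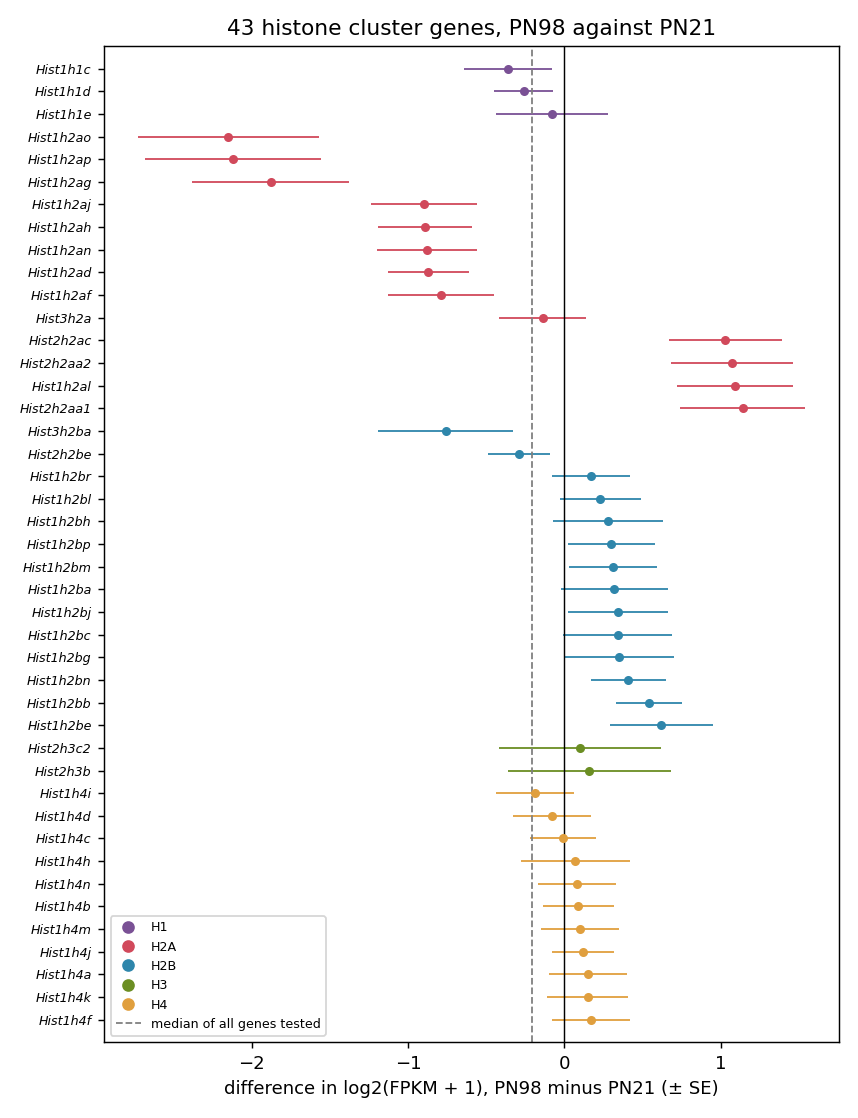
Difference in log2(FPKM + 1), PN98 minus PN21, with its standard error, for the 43 histone cluster genes tested, grouped by family (colours). The dashed line marks the median of all genes tested, at -0.21. H2A genes take both ends of the range, from -2.15 for *Hist1h2ao* to 1.14 for *Hist2h2aa1*, while H2B and H4 genes other than *Hist3h2ba* lie between -0.29 and 0.62.

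The spread was largest within H2A, of which 9 of 13 genes tested were lower and 4 higher at PN98. All 8 H2A genes of cluster 1 that were tested, *Hist1h2al* aside, had a lower mean at PN98, and the unadjusted p was under 0.05 for each. *Hist1h2ag* differed by -1.88 ± 0.50 (SE; adjusted p = 0.0675), *Hist1h2ap* by -2.12 ± 0.56 (adjusted p = 0.0697) and *Hist1h2ao* by -2.15 ± 0.58 (adjusted p = 0.0709). *Hist1h2ad* differed by -0.87 ± 0.26 (adjusted p = 0.0896), and the other 4 by -0.79 to -0.90. For these 5 genes near 1 FPKM the pseudocount sets the size, and without it the differences were -1.71 to -2.02, with *Hist1h2ad* at an adjusted p of 0.0464. When every row naming a gene was summed, which adds transcripts of its neighbours, *Hist1h2ag* differed by -0.76 (adjusted p = 0.194), *Hist1h2aj* by -0.31 and *Hist1h2an* by -0.24. In all 8 genes m145 was the highest mouse. None passed the threshold in the main fit. *Hist1h2ag*, *Hist1h2ao* and *Hist1h2ap* did when PN21 mouse m49 was left out (adjusted p of 0.036 to 0.0362), in a fit that called 345 of all 16160 genes tested. They also did when PN98 mouse m35 was left out (adjusted p of 0.0314 to 0.0351), in a fit that called 3644 of all genes tested. Leaving out m35 also brought *Hist3h2ba*, an H2B gene of cluster 3, past the threshold, so that 4 of the 43 cluster genes were called there.

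The 8 genes are not independent measurements. Of the 100-base stretches of *Hist1h2ao*, 92.7% occur identically in *Hist1h2ap*, and *Hist1h2ag* shares 68.1% of its stretches with *Hist1h2ao*. Reads within such a stretch match several genes, so the level of a single gene in this set is uncertain, and some stretches also occur in *H2afx*, *Gm11336* and *Gm20634*, outside the cluster genes. The sum over the 14 H2A genes of cluster 1 is less bound to single genes, but still depends on how reads were divided, since the models differ in length. It was 45.5, 18.2, 80.5 and 123 FPKM in m1, m49, m138 and m145, and 20.3, 7.30, 13.9 and 8.39 FPKM in m35, m106, m114 and m125. The mean was 66.9 ± 45.5 FPKM at PN21 and 12.5 ± 5.96 FPKM at PN98 (SD, n = 4 each), with m35 above m49.

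*Hist1h2al* and the H2A genes of cluster 2 formed the opposite end. *Hist2h2aa1* differed by 1.14 ± 0.40 (SE; adjusted p = 0.125), *Hist1h2al* by 1.09 ± 0.37 (adjusted p = 0.122), *Hist2h2aa2* by 1.07 ± 0.39 (adjusted p = 0.14) and *Hist2h2ac* by 1.03 ± 0.36 (adjusted p = 0.126). Every 100-base stretch of *Hist2h2aa2* and 88.3% of those of *Hist2h2aa1* occur in each other or in the predicted gene *Gm20634*, so the level of either is uncertain. For *Hist1h2al* 19.2% and for *Hist2h2ac* 6.89% of the stretches occur in another gene. Those of *Hist1h2al* occur in *Gm20634*, *Hist2h2aa1*, *Hist2h2aa2* and *Hist2h2ac*, and only identical stretches were counted. Its values were also close to those of *Hist2h2aa1* and *Hist2h2aa2* in every mouse, so its level is uncertain as well. With every row naming the gene summed, *Hist2h2ac* differed by 0.68. Summed over *Hist1h2al* and the 4 H2A genes of cluster 2, the values were 128, 91.3, 64.0 and 156 FPKM at PN21 and 274, 163, 398 and 146 FPKM at PN98 in the order of mice used above. The mean was 110 ± 40.5 FPKM at PN21 and 245 ± 117 FPKM at PN98 (SD, n = 4 each), with m125 below m145. The 5 genes were grouped after their values and shared stretches had been seen.

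**Figure D3:**
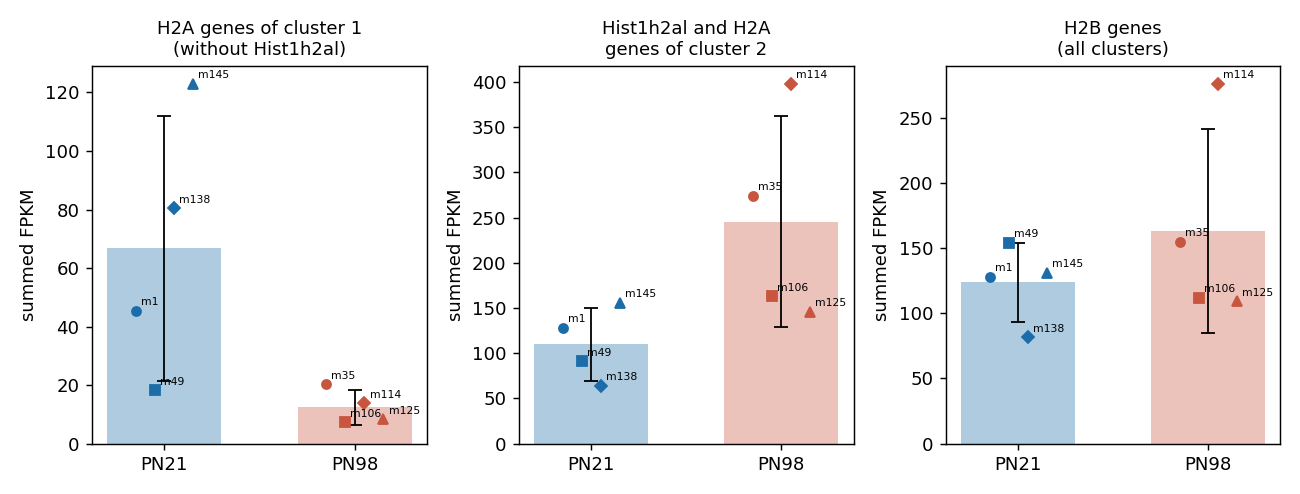
Summed FPKM per mouse of the 14 H2A genes of cluster 1 without *Hist1h2al*, of *Hist1h2al* with the H2A genes of cluster 2, and of the 19 H2B genes, with bars for the mean, whiskers for the SD (n = 4 mice each) and 1 labelled point per mouse. The first sum is 18.2 to 123 FPKM at PN21 and 7.30 to 20.3 FPKM at PN98, the second 64.0 to 156 and 146 to 398 FPKM, and the third 81.8 to 154 and 109 to 276 FPKM.

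Among H2B genes 12 of 14 had a higher mean at PN98, and none passed the threshold. These 14 genes are not independent measurements either, since most share identical stretches with other genes. The shared part of the stretches ran from 0% for *Hist2h2be* to 86.4% for *Hist1h2br*, with 62.1% for *Hist1h2bl*. The count of 12 is therefore not one of separate genes. The largest differences were 0.62 ± 0.33 for *Hist1h2be* (SE; adjusted p = 0.243) and 0.54 ± 0.21 for *Hist1h2bb* (adjusted p = 0.157). *Hist1h2bb* had 1.17, 1.12, 0.870 and 0.878 FPKM at PN21 and 1.58, 1.17, 3.19 and 2.08 FPKM at PN98, and its difference was -0.03 when every row naming the gene was summed. For *Hist1h2bc* the difference was 0.34 ± 0.35 (adjusted p = 0.542). In 11 of the 14 H2B genes m114 was the highest mouse. *Hist1h2bn* and *Hist3h2ba* were highest in m35, and *Hist2h2be* in m49. *Hist3h2ba* had 4.05 FPKM in m35 against 0.248 to 0.646 FPKM in the other PN98 mice and 1.74 to 3.62 FPKM at PN21.

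H2A and H2B genes often stand head to head and share the stretch between their starts. In the annotation 14 such pairs start within 500 bases of each other, and in 5 both genes were tested. *Hist1h2ag*, whose start lies 270 bases from that of *Hist1h2bj*, had 7.63, 2.77, 11.1 and 18.5 FPKM at PN21 and 3.14, 0.961, 1.76 and 0.885 FPKM at PN98. *Hist1h2bj* had 5.53, 5.96, 3.43 and 4.28 FPKM at PN21 and 5.31, 4.61, 12.8 and 4.6 FPKM at PN98. The mice that were high in the H2A gene, m145 and m138, were the lowest PN21 mice in its H2B neighbour. The differences of H2A and H2B gene were -2.12 and 0.17 for *Hist1h2ap* and *Hist1h2br*, -0.90 and 0.31 for *Hist1h2aj* and *Hist1h2bm*, and -0.88 and 0.30 for *Hist1h2an* and *Hist1h2bp*. In the pair of cluster 2 the H2A gene had the higher difference, with 1.03 for *Hist2h2ac* and -0.29 for *Hist2h2be*, an H2B gene whose transcript shares no 100-base stretch with any other gene. These contrasts rest on the assignment of each transcript to 1 gene: rows of the table often name both neighbours, and when every row naming a gene was summed, the genes of each of the 5 pairs had the same sum in every mouse. The difference of both genes was then -0.76 for *Hist1h2ag* and *Hist1h2bj*, -1.77 for *Hist1h2ap* and *Hist1h2br*, -0.31 for *Hist1h2aj* and *Hist1h2bm*, -0.24 for *Hist1h2an* and *Hist1h2bp* and 0.68 for *Hist2h2ac* and *Hist2h2be*.

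The 11 H4 genes differed by -0.19 (*Hist1h4i*) to 0.17 (*Hist1h4f*), with 8 higher and 3 lower at PN98. Under the median of ratios 1 was lower, and with equal nuclear sums 0 were. In the main fit the adjusted p-values of the 11 genes (limma) were 0.635 or more. The H4 genes also share identical stretches, from 0% for *Hist1h4d* to 88.1% for *Hist1h4m*, so these counts are not of separate genes. Summed over all 13 H4 genes, those not tested included, FPKM was 75.1, 58.2, 41.4 and 64.9 at PN21 and 63.3, 50.6, 99.2 and 43.9 at PN98. The H3 genes *Hist2h3b* and *Hist2h3c2* differed by 0.16 ± 0.52 and 0.10 ± 0.52 (SE; adjusted p = 0.865 and 0.914), and their values were set by m114, with 10.5 and 12.3 FPKM against 1.13 to 2.95 FPKM in the other PN98 mice. The 3 H1 genes tested had lower means at PN98, by -0.36 ± 0.28 for *Hist1h1c*, -0.26 ± 0.19 for *Hist1h1d* and -0.08 ± 0.36 for *Hist1h1e* (SE; adjusted p of 0.406 or more), and under the median of ratios 1 of 2 and with equal nuclear sums 2 of 3 were lower. A p above the threshold does not show that H4, H3 and H1 transcripts were equal at both ages.

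The genes that accompany histone synthesis are given beside the cluster genes. Of 23 S phase genes tested, 14 fell and 0 rose at an adjusted p under 0.05, against 2.95% and 2.35% of all genes tested. All 23 had a lower mean at PN98, with a median difference of -1.22. *Rrm2*, a subunit of ribonucleotide reductase, was 13.7 ± 3.22 FPKM at PN21 and 1.98 ± 1.39 at PN98 (SD, n = 4 each) and fell by 2.42 ± 0.36 on the log2(FPKM + 1) scale (limma, adjusted p = 0.0124). *Ccna2*, the S phase cyclin, fell by 2.41 ± 0.35 (adjusted p = 0.0111), *Mcm5*, of the replicative helicase, by 1.88 ± 0.39 (adjusted p = 0.0339), *Tyms*, the thymidylate synthase, by 1.60 ± 0.26 (adjusted p = 0.0157), *Prim1*, the primase, by 1.39 ± 0.26 (adjusted p = 0.024) and *Rrm1* by 1.23 ± 0.18 (adjusted p = 0.011). The number of S phase genes called was 7 with a pseudocount of 0.1 or with equal nuclear sums. It was 17 without m35, in a fit that called 3644 of all genes tested. Without any other single mouse it was 2 to 6, the lowest without m106.

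Of 11 histone genes outside the clusters, 10 had a lower mean at PN98 (9 of 11 under both other scalings). Over all genes 10835 of 16160 were lower, with 8421 of 16067 under the median of ratios and 7883 of 16113 with equal nuclear sums. Of the 11 genes, 2 fell at an adjusted p under 0.05, against 2.95% of all genes tested. *Cenpa*, the centromeric H3, was 26.4 ± 4.71 FPKM at PN21 and 5.81 ± 4.30 at PN98 and fell by 2.18 ± 0.39 (adjusted p = 0.0214). *H2afx*, the H2A variant of the DNA damage response, fell by 1.41 ± 0.27 (adjusted p = 0.027). The sum of the 11 genes was 658 to 872 FPKM at PN21 and 354 to 684 FPKM at PN98, so that at PN21 it exceeded the sum of the 70 cluster genes in every mouse (330 to 562 FPKM).

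Of 16 genes of histone mRNA processing tested, 3 fell and 0 rose, against 2.95% and 2.35% of all genes tested. *Slbp*, which binds the stem-loop, was 53.5 ± 9.22 FPKM at PN21 and 27.9 ± 4.56 at PN98 (SD, n = 4 each) and fell by 0.91 ± 0.19 (adjusted p = 0.0325). *Ncbp1*, of the cap binding complex, fell by 0.64 ± 0.14 (adjusted p = 0.042), and *Lsm11*, of the U7 snRNP, by 0.57 ± 0.13 (adjusted p = 0.0454). The processing genes were called in 1 case under the median of ratios and in 0 under equal nuclear sums. Of 20 histone chaperones 3 fell and 0 rose, against the same shares of all genes tested. *Asf1b* fell by 1.44 ± 0.23 (adjusted p = 0.0166), *Nasp* by 1.35 ± 0.23 (adjusted p = 0.0182) and *Chaf1a* by 1.09 ± 0.21 (adjusted p = 0.0258). All 3 are carriers of newly made H3 and H4. Without m35 the calls were 7 of 11 histone genes outside the clusters, 5 of 16 processing genes and 8 of 20 chaperones. That fit called 3644 of all 16160 genes tested. Without PN21 mice m1 or m138 or PN98 mice m106 or m114 there were 0 in each of the 3 lists. These fits called 192 to 307 of all genes tested.

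**Figure D4:**
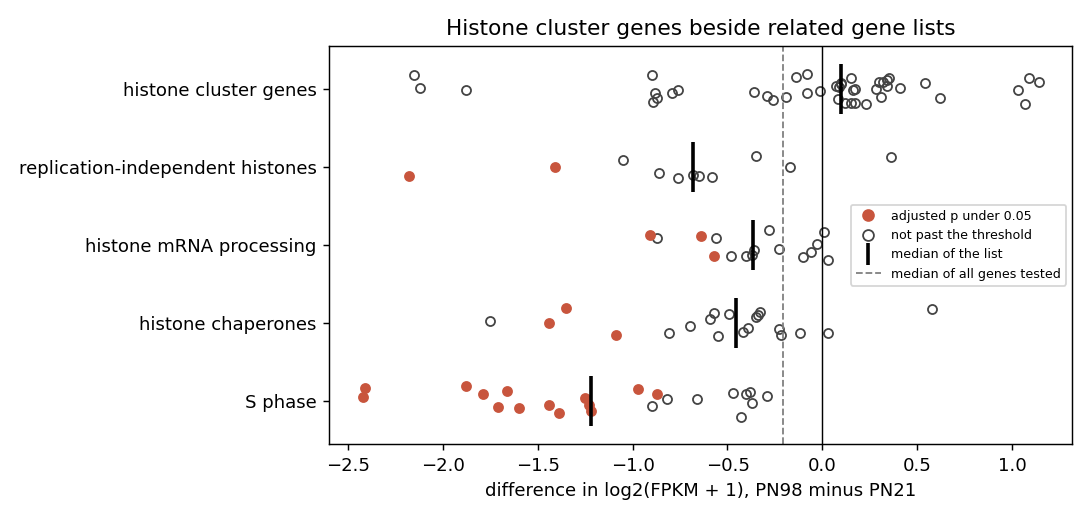
Difference in log2(FPKM + 1), PN98 minus PN21, of the 43 histone cluster genes and of the 4 related lists, with 1 point per gene, filled where the adjusted p was under 0.05, and a bar at the median of each list. The cluster genes have a median of 0.10 and no filled point, and the S phase genes a median of -1.22 with 14 of 23 filled.

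Cell markers were set beside these values. Of the macrophage and endothelial markers tested, 0 of 9 and 0 of 6 were called, with median differences of -0.16 and -0.48. Among adipose progenitor markers 1 of 7 fell, against 2.95% of all genes tested, with a median of -0.29 over the list. Lymphocyte markers had lower means at PN98 in 13 of 13 genes tested, with a median difference of -2.18 and 0 called, and their sum was 781, 1182, 1874 and 1733 FPKM in m1, m49, m138 and m145 and 1739, 330, 152 and 59.7 FPKM in m35, m106, m114 and m125. In both the lymphocyte sum and the H2A sum of cluster 1, m138 and m145 were highest at PN21 and m35 was highest at PN98. Mice m35 and m145 had similar lymphocyte sums, with H2A sums of 20.3 and 123 FPKM. The H2A sum of m1, lowest of the PN21 mice in lymphocyte markers, was 45.5 FPKM against 18.2 FPKM in m49. The S phase sum was 220 to 303 FPKM at PN21, and at PN98 156 FPKM in m35 against 74.1 to 104 FPKM in the other mice. Markers of mammary and skin epithelium summed to 3.83 to 77.7 FPKM at PN21 and 1.70 to 2.84 FPKM at PN98, and 1 of 6 tested fell. The part of these cells in the values of histone genes was not tested.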

How the data were processed

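RNA of inguinal white adipose tissue of 4 PN21 and 4 PN98 mice was poly(A)-selected by the authors and made into directional paired-end libraries. Per the labels and methods, reads were aligned to GRCm38 with STAR 2.3.0 and quantified with Cufflinks 2.1.1 after CASAVA 1.8.2 and FastQC. The deposited values are FPKM per transcript, written by the authors without part of their decimal marks. Marks were missing in 40441 of 91969 transcripts. The authors' average and SD columns were read as covering 10 libraries, more than the mice listed. A reading was kept only where the libraries not listed came out non-negative and as numbers of 6 significant digits. This left a single reading for 40354 transcripts. Of the other 87, 39 were taken from a second deposited table and 48 were left out, and 4993 of 4993 transcripts also found in that table were equal. The deposited columns of group comparisons were not used.

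FPKM was summed per gene, and limma 3.58.1 (R 4.3.3) was run on log2(FPKM + 1) for genes with a mean of at least 1 FPKM, with Benjamini-Hochberg adjustment over all genes tested. Single transcripts were tested as log2(FPKM) where all 8 values were above 0 and the mean exceeded 2 FPKM at either age. Exact permutation tests used scipy 1.17.1 and summaries pandas 2.3.3 (Python 3.11.15). The procedure was checked on simulated data. The members and lists were chosen with earlier results of these data known. Every cluster gene of at least 1 FPKM is named, with values per mouse for the 10 of highest mean, and up to 6 called genes of each list by lowest p. Further genes shown by mouse, and the grouping of *Hist1h2al* with cluster 2, were chosen after their values were seen. Alternatives were other pseudocounts, filters and scalings, inclusion of every row naming a gene, limma with trend and robust or array weights, and leaving out each mouse. Read counts are not given, so depth is unknown and no counting error can be stated. The labels do not say whether samples beyond being separate mice differ in batch.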

Additional observations from a re-analysis of the deposited data

Results flagged for a closer look

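Of 98 groups of 4 mice examined (the cluster genes tested and the sums, at each age), 6 held a mouse whose gap to the nearest other, as a share of the whole range, exceeded Dixon's critical value for groups of 4, and chance gives about 1 in 20. PN98 mouse m114 stood above the other PN98 mice in 5 of them. For *Hist1h2bj*, an H2B gene, the share was 0.914, with 12.8 FPKM against 4.6 to 5.31 FPKM. *Hist1h2ba*, the testis H2B gene, had a share of 0.833, with 15.9 FPKM against 5.19 to 6.98 FPKM. The H3 gene *Hist2h3b* had a share of 0.88, with 10.5 FPKM against 1.13 to 2.26 FPKM, and its neighbour *Hist2h3c2* a share of 0.848, with 12.3 FPKM against 1.27 to 2.95 FPKM. The sum of the H3 genes had a share of 0.843, with 28.0 FPKM against 3.92 to 7.69 FPKM. PN98 mouse m35 stood apart in *Hist3h2ba*, an H2B gene, with a share of 0.895 and 4.05 FPKM against 0.248 to 0.646 FPKM. Several of these genes share sequence, so the 6 values are not independent.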

How the results depend on the processing

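The count of cluster genes called was 0, and it became 1 without a pseudocount (*Hist1h2ad*), 1 with every row naming a gene (*Hist1h3d*, of 58 tested), 8 with array weights and 0 to 4 on leaving out 1 mouse. On single transcripts it was 0 to 1 on leaving out 1 mouse. At an unadjusted p under 0.05 the alternatives gave 5 to 19 cluster genes. Calls over all genes numbered 856 (477 lower at PN98), 1229 under the median of ratios (471 lower), 824 with equal nuclear sums (264 lower), 4734 with array weights and 192 to 3644 on leaving out 1 mouse. Histone genes outside the clusters gave 9 calls with array weights and 0 to 7 on leaving out 1 mouse. Processing genes gave 1 under the median of ratios, 0 with equal nuclear sums, 5 with array weights and 0 to 5 on leaving out 1 mouse, and chaperones 11 with array weights and 0 to 8. S phase genes gave 7 with a pseudocount of 0.1, 7 without a filter, 7 with equal nuclear sums and 2 to 17 on leaving out 1 mouse. The direction turned under at least 1 alternative for 25 of the 43 cluster genes tested, in 57 values. With every row naming the gene summed it turned for *Hist1h2bj* (-0.76), *Hist2h2be* (0.68), *Hist1h4m* (-1.61), *Hist1h4n* (-1.59), *Hist1h2bp* (-0.24), *Hist1h2bl* (-0.05), *Hist1h2bm* (-0.31), *Hist1h2bb* (-0.03) and *Hist1h2br* (-1.77), where the added rows also name neighbouring genes. With array weights it turned for *Hist1h4h* (-0.14), *Hist1h2bh* (-0.09), *Hist1h2bg* (-0.03), *Hist1h4a* (-0.06), *Hist2h3c2* (-0.14), *Hist1h4b* (-0.04), *Hist2h3b* (-0.18), *Hist1h4m* (-0.03), *Hist1h4n* (-0.05), *Hist1h4j* (-0.04) and *Hist1h2br* (-0.02). Under the median of ratios it turned for *Hist1h1e* (0.11), *Hist3h2a* (0.04), *Hist1h4c* (0.17) and *Hist1h4d* (0.04), and with equal nuclear sums for *Hist1h1e* (0.16), *Hist3h2a* (0.09), *Hist1h4i* (0.04), *Hist1h4c* (0.21) and *Hist1h4d* (0.08). On leaving out 1 mouse, 14 genes turned without m114, 4 without m125, 3 without m138 and 1 or 2 without m1, m49, m145 or m106. The ranges were -0.19 to 0.25 for *Hist1h4h*, -0.07 to 0.28 for *Hist1h4k*, -0.01 to 0.46 for *Hist1h2bh*, -0.35 to 0.23 for *Hist1h1e*, -0.01 to 0.47 for *Hist1h2ba*, -0.27 to 0.07 for *Hist3h2a*, -0.19 to 0.08 for *Hist1h4c*, -0.06 to 0.25 for *Hist1h4a*, -0.43 to 0.42 for *Hist2h3c2*, just below 0 to 0.30 for *Hist1h4f*, -0.11 to 0.20 for *Hist1h4b*, -0.38 to 0.43 for *Hist2h3b*, -0.12 to 0.26 for *Hist1h4m*, -0.14 to 0.23 for *Hist1h4n*, -0.04 to 0.20 for *Hist1h4j*, -0.01 to 0.37 for *Hist1h2bl*, -0.22 to 0.06 for *Hist1h4d* and -0.06 to 0.27 for *Hist1h2br*. Other causes were not tested. Of the other fold changes of 43 cluster and 14 list genes under 16 alternatives, 758 kept direction and side of the threshold, 16 newly passed it and 77 no longer passed it, each with its direction kept. No paired analysis was possible because the labels give the mice of PN21 and PN98 no shared numbers.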
